A study of Mus musculus with 10 samples.

Results

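Kupffer cells are the macrophages that reside in the liver sinusoids, where they take up bacteria, spent erythrocytes and dying cells from portal blood. They arise from embryonic precursors, renew themselves in place and depend on signalling through the receptor Csf1r. When they are lost, blood monocytes enter the niche and take on much of the same gene programme, acquiring some markers early and others, such as Timd4, late. The genes described here are 10 markers of these cells: Clec4f, Vsig4, Timd4, Adgre1, Marco, Cd5l, C1qa, C1qb, C1qc and Csf1r. They were chosen by name as known markers of resident liver macrophages, with no rule on their counts but with earlier results of these data known. All 10 were found among the 43629 genes listed in the count table, and all 10 were among the 14143 genes with enough reads to be tested.

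Livers came from male KL mice, a lung cancer model that carries floxed Lkb1 (f/f) among its alleles on an FVB background. All of them received Ad5CMV-Cre adenovirus through the nose as adults, so that lung tumours arose in both groups. The CACS (cachectic) group held 5 mice with a body weight change of -30.6 ± 1.82% (SD, n = 5), and the NCACS (non-cachectic) group held 5 mice with a change of -8 ± 4.64% (SD, n = 5). No tumour-free liver enters the comparison, so each value below compares tumour-bearing mice with and without severe weight loss. The viral promoter that drives Cre is not specific to one cell type. RNA was sequenced from whole liver, so fewer Kupffer cells and less marker RNA per cell cannot be told apart. Libraries held 31459179 to 40746178 counted reads, and levels are given as CPM, the reads of a gene relative to all reads of its library on a fixed scale, after TMM normalization, which offsets differences in library composition.

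Every one of the 10 marker genes had a negative log2 fold change in CACS against NCACS livers, where 50.6% of all genes tested did. Cd5l was the only one to pass the threshold (edgeR's quasi-likelihood test, Benjamini-Hochberg adjusted p under 0.05), and its mean was 46.5% lower. That threshold was passed by 3.8% of all genes in either direction and by 1.92% in the downward direction. At an unadjusted p under 0.05, 4 of the 10 (Cd5l, Adgre1, Marco and Timd4) were lower, where 10.3% of all genes were. The median log2 fold change was -0.39 for the marker genes and -0.00525 for all genes tested, and the same 4 genes fell below the 10th percentile of all genes, which stood at -0.49. Since the 10 genes share their cells, they are not 10 independent observations of a group difference. The list was also chosen with earlier results of these data known, so the shares beside those of all genes are a description.

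**Figure D1:**
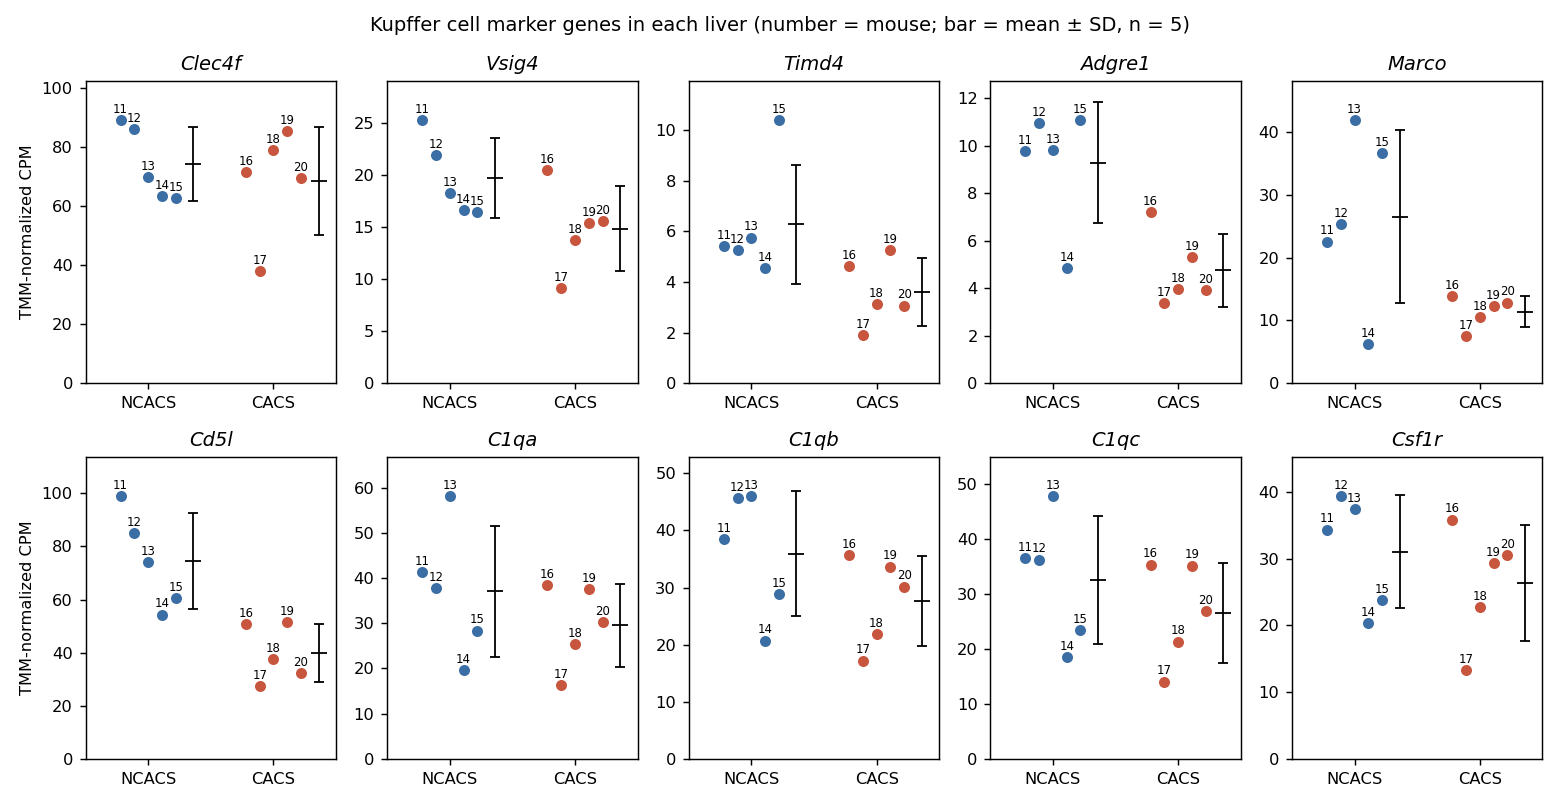
TMM-normalized CPM (y axis, linear from 0) of each of the 10 genes in the 5 NCACS and 5 CACS livers, with the mouse number beside each point and the mean ± SD drawn to the right of the points. In the Cd5l panel every CACS liver lies at or below 51.6 CPM and every NCACS liver at or above 54.3 CPM, while the groups overlap in the other 9 panels.

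The sequences just upstream of 3 of these genes are shown, 1 for each way the genes behaved: Cd5l passed the test, Marco had the most negative estimate, and C1qb followed the other C1q genes from liver to liver. Each run is the 250 bases before the RefSeq start on GRCm38.p6, written 5′ to 3′ along the strand of the gene. Capitals mark GAGGAA, the core letters of the PU box read by the macrophage factor PU.1 (the product of Spi1), and TGGGAA, the core read by RBPJ, the nuclear partner of Notch, on either strand. The Cd5l run lies at chr3:87357631-87357880 on the plus strand, the Marco run at chr1:120505025-120505274 on the minus strand and the C1qb run at chr4:136886201-136886450 on the minus strand.
Cd5l: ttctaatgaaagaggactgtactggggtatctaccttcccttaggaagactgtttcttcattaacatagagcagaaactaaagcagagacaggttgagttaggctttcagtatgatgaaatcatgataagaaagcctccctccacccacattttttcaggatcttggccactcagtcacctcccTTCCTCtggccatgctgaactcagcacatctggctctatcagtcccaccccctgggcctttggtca
Marco: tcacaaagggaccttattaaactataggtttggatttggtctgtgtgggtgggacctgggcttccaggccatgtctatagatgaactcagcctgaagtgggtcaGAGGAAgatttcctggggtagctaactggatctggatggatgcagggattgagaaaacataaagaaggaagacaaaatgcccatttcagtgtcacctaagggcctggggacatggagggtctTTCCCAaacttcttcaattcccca
C1qb: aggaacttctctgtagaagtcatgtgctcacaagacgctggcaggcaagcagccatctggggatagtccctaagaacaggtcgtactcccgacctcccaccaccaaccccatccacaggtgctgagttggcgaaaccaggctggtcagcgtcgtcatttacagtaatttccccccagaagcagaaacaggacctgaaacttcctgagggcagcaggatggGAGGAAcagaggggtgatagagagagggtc

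Windows from 250 bases before to 50 bases after the start were given for 7 of the 10 genes (Clec4f, Vsig4, Timd4, Marco, Cd5l, C1qb and C1qc). GAGGAA on either strand was present in 5 of these windows, those of Vsig4, Marco, Cd5l, C1qb and C1qc, and in 28.3% of all 32851 RefSeq windows of that length. In Vsig4 it occurred at -155 and -53 from the start, in Marco at -146, in Cd5l at -66, in C1qb at -30 and in C1qc at -193. TGGGAA was present in 2 windows, at -35 in Clec4f and -24 in Marco, and in 25.6% of all windows. The AP-1 motif TGAGTCA, the E-box TCACGTG of the MITF and TFE factors and the LXR direct repeat occurred in none of the 7 windows, and in 5.2%, 3.77% and 0.0152% of all windows. No motif contains another, and a match describes the letters only. GAGGAA was held by Cd5l, which passed the test, and by Marco and C1qb, which did not.

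Cd5l encodes a secreted scavenger receptor protein, also called apoptosis inhibitor of macrophages, that circulates with IgM and whose transcription is known to respond to the sterol receptor LXR. The gene (ENSMUSG00000015854) spans positions 87357881 to 87371073 of chromosome 3 on GRCm38. In NCACS mice 11 to 15 it was measured at 98.9, 84.9, 74.2, 54.3 and 60.6 CPM. In CACS mice 16 to 20 it was measured at 50.6, 27.4, 37.6, 51.6 and 32.3 CPM. The groups did not overlap, which was so in the downward direction for 3.13% of all genes tested and for none of the other 9 markers. Its mean fell from 74.6 ± 18.1 to 39.9 ± 10.8 CPM (SD, n = 5), and the log2 fold change was -0.90 (SE 0.207, 95% interval -1.35 to -0.45) with an edgeR adjusted p of 0.0374. An exact two-sided permutation test of the CPM gave p = 0.00794, the smallest that 5 against 5 livers allow. With 1 mouse left out at a time the edgeR adjusted p ran from 0.0438 to 0.0862 and passed the threshold in 2 of 10 fits, those without NCACS mouse 14 or CACS mouse 19, while the log2 fold change stayed between -1.01 and -0.78. It passed under all 9 other settings tried.

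Marco encodes a scavenger receptor that binds bacteria and modified lipoproteins on the macrophage surface. The gene (ENSMUSG00000026390) spans positions 120474538 to 120505024 of chromosome 1. In NCACS mice 11 to 15 it stood at 22.5, 25.3, 41.8, 6.26 and 36.7 CPM, and in CACS mice 16 to 20 at 13.8, 7.48, 10.5, 12.2 and 12.8 CPM. The lowest of all 10 livers was thus an NCACS liver, that of mouse 14, while the other 4 NCACS livers all lay above every CACS liver. The log2 fold change was -1.22 (SE 0.384, 95% interval -2.06 to -0.38), the edgeR adjusted p was 0.0968, and an exact permutation test gave p = 0.0952. Without mouse 14 the log2 fold change was -1.47 and the edgeR adjusted p 0.0158. DESeq2 on all 10 livers, which called 1386 genes against 538 in the main test, gave Marco an adjusted p of 0.0157. With limma-voom the adjusted p was 0.234, and with the robust edgeR fit 0.13. Marco passed in 1 of 10 fits with a mouse left out and in 1 of 9 other settings.

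Adgre1 encodes F4/80, an adhesion receptor long used to identify mouse macrophages, and Timd4 encodes a receptor for phosphatidylserine that tethers dying cells and marks long-resident Kupffer cells. Adgre1 (ENSMUSG00000004730) spans positions 57358691 to 57483527 of chromosome 17, and Timd4 (ENSMUSG00000055546) positions 46810800 to 46844332 of chromosome 11. In NCACS mice 11 to 15 Adgre1 stood at 9.76, 10.9, 9.80, 4.85 and 11.1 CPM, and in CACS mice 16 to 20 at 7.20, 3.38, 3.95, 5.32 and 3.92 CPM. Mouse 14 lay among the CACS values, and the other NCACS livers lay above all of them. The log2 fold change of Adgre1 was -0.96 (SE 0.256) with an edgeR adjusted p of 0.0583, and an exact permutation test gave p = 0.0238. The edgeR adjusted p was 0.031 without mouse 14, and DESeq2 on all livers gave 0.00623. Adgre1 passed in 2 of 10 fits with a mouse left out and in 1 of 9 other settings.

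Timd4 had the fewest reads of the 10 genes, between 72 and 336 per liver, so its values carry the largest counting error. In NCACS mice 11 to 15 it stood at 5.43, 5.25, 5.76, 4.55 and 10.4 CPM, and in CACS mice 16 to 20 at 4.62, 1.89, 3.13, 5.27 and 3.06 CPM. Mouse 15 lay well above the other livers, and the CACS values of mice 16 and 19 lay within the NCACS range. The log2 fold change was -0.80 (SE 0.295, 95% interval -1.45 to -0.16). Its edgeR adjusted p was 0.142, and an exact permutation test gave p = 0.0397. Without mouse 15 the log2 fold change was -0.54.

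In mice Clec4f is largely restricted to Kupffer cells, and Vsig4 to macrophages resident in tissues. Clec4f encodes a lectin for galactose-type sugars, and Vsig4 an immunoglobulin-family receptor for complement C3 fragments that captures opsonized particles. Clec4f (ENSMUSG00000014542, positions 83644542 to 83656187 of chromosome 6) ranged from 62.8 to 89.0 CPM in NCACS livers and from 38.0 to 85.2 CPM in CACS livers. In 4 of 5 CACS livers Clec4f lay within the NCACS range, and mouse 17 was below it. The log2 fold change of Clec4f was -0.11 (SE 0.194), with an edgeR adjusted p of 0.782. Its 95% interval of -0.54 to 0.31 still holds declines of a moderate size. Without mouse 17 the estimate was 0.04.

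Vsig4 (ENSMUSG00000044206, positions 96247203 to 96293438 of chromosome X) stood at 25.2, 21.9, 18.3, 16.6 and 16.4 CPM in NCACS mice 11 to 15. In CACS mice 16 to 20 it stood at 20.4, 9.13, 13.7, 15.4 and 15.5 CPM. Mouse 16 lay within the NCACS range, and the other 4 CACS livers lay below it. The log2 fold change was -0.41 (SE 0.195, 95% interval -0.83 to 0.02), the edgeR adjusted p was 0.249, and an exact permutation test gave p = 0.0873.

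C1qa, C1qb and C1qc encode the chains of C1q, the recognition unit of the classical complement pathway, which in liver is made largely by macrophages. They lie side by side on the minus strand of chromosome 4, at positions 136895917 to 136898803 (C1qa, ENSMUSG00000036887), 136889804 to 136893065 (C1qc, ENSMUSG00000036896) and 136880129 to 136886187 (C1qb, ENSMUSG00000036905). C1qa ranged from 19.7 to 58.1 CPM in NCACS and from 16.2 to 38.5 CPM in CACS livers, C1qb from 20.7 to 46.0 and from 17.2 to 35.6 CPM, and C1qc from 18.5 to 47.8 and from 14.1 to 35.3 CPM. For each chain 4 of 5 CACS livers fell inside the NCACS range and mouse 17 fell below it. The log2 fold changes were -0.32 for C1qa, -0.38 for C1qb and -0.29 for C1qc, with edgeR adjusted p-values of 0.550, 0.405 and 0.594. All 3 intervals crossed 0.

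Csf1r (ENSMUSG00000024621) encodes the receptor for Csf1 and Il34 on which the survival of Kupffer cells and other macrophages depends. It ranged from 20.4 to 39.4 CPM in NCACS livers and from 13.3 to 35.8 CPM in CACS livers. The groups overlapped throughout except for mouse 17. The log2 fold change was -0.24 (SE 0.256, 95% interval -0.80 to 0.32) with an edgeR adjusted p of 0.634. Csf1r overlaps the gene Hmgxb3 on the other strand, and the strand setting of the counting is not given in the sources used here, so its counts may hold reads of that gene.

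**Figure D2:**
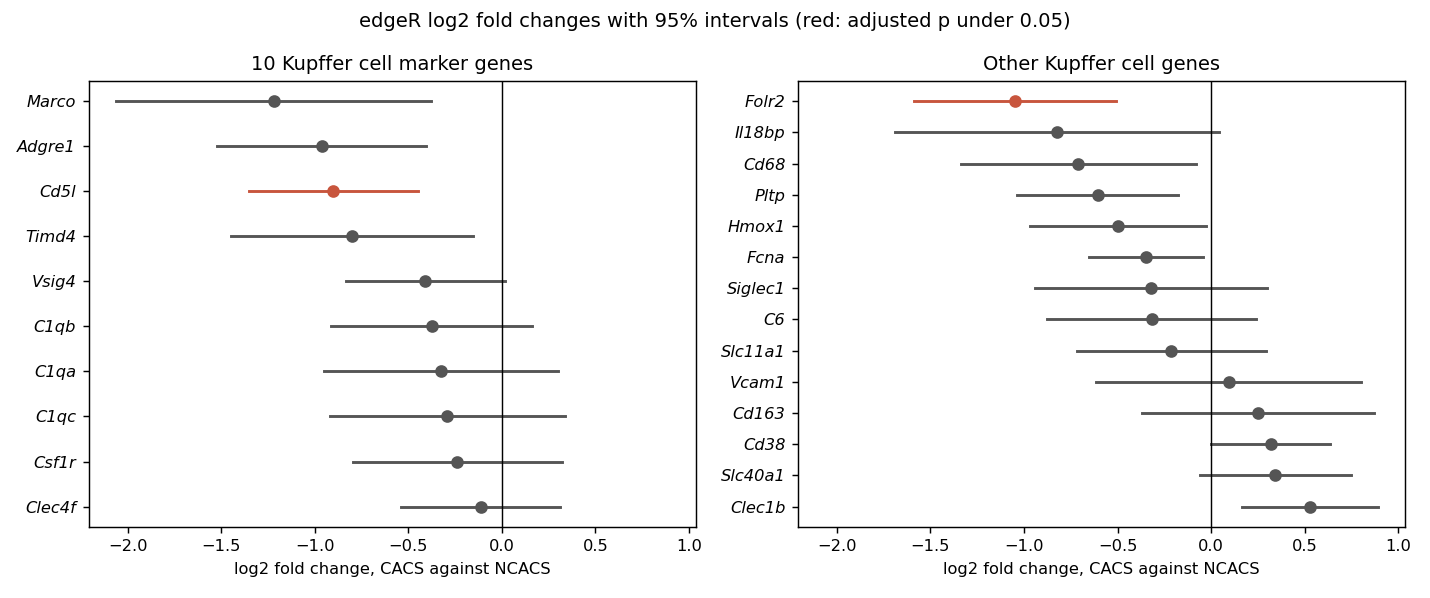
Log2 fold changes (x axis, CACS against NCACS, points) with 95% intervals (lines) for the 10 marker genes (left) and for 14 other Kupffer cell genes (right), with genes at an edgeR adjusted p under 0.05 in red. All 10 points on the left lie below 0, from -1.22 for Marco to -0.11 for Clec4f, and Cd5l and Folr2 are the red genes.

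Per kilobase of exon, which allows levels of different genes to be compared, Cd5l led in NCACS livers at 36.6 ± 8.87 CPM per kb. It was followed by C1qa (35.6 ± 13.9), C1qb (33.0 ± 10.1) and Clec4f (30.0 ± 5.07 CPM per kb, SD, n = 5), and each neighbouring pair among these 4 differed by less than its spread. C1qc, Marco and Vsig4 formed a lower group between 13.3 and 16.8 CPM per kb whose members also differed by less than their spread. Csf1r stood at 5.38 ± 1.47 CPM per kb, and Timd4 and Adgre1 came last at 2.89 ± 1.08 and 2.87 ± 0.789 CPM per kb and differed by less than their spread.

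In CACS livers Cd5l, at 19.6 ± 5.32 CPM per kb, ranked the fourth, behind C1qa (28.4 ± 8.83), Clec4f (27.8 ± 7.38) and C1qb (25.5 ± 7.25 CPM per kb). The leading 3 genes differed by less than their spread. Marco, at 5.91 ± 1.29 CPM per kb, lay below Vsig4 and next to Csf1r at 4.56 CPM per kb, from which it differed by less than the spread of Csf1r. Timd4 (1.65 ± 0.620) and Adgre1 (1.47 ± 0.476 CPM per kb) remained the lowest.

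Individual livers differed across the whole set of markers at once. CACS mouse 17 was the lowest of all 10 livers for 9 of the 10 genes, the exception being Marco, and the lowest of its group for all 10. NCACS mouse 14 was the lowest of its group for 8 genes. Summed over the 10 genes, NCACS mice 11 to 15 held 401, 393, 409, 229 and 302 CPM, and CACS mice 16 to 20 held 313, 148, 239, 311 and 255 CPM. The sum was thus lower in mouse 14 than in every CACS liver except that of mouse 17. Mouse 17 had lost 29% of its weight and mouse 14 had lost 3%. Neither library was shallow, with 35740920 and 32444194 counted reads.

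The comparison was also made without these livers. Without mouse 17 the median log2 fold change of the 10 genes was -0.26, 9 of 10 were negative and no gene passed (Cd5l adjusted p 0.0549, edgeR). Without mouse 14 the median was -0.50, all 10 were negative, and Cd5l, Marco and Adgre1 passed with edgeR adjusted p-values of 0.0438, 0.0158 and 0.031.

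**Figure D3:**
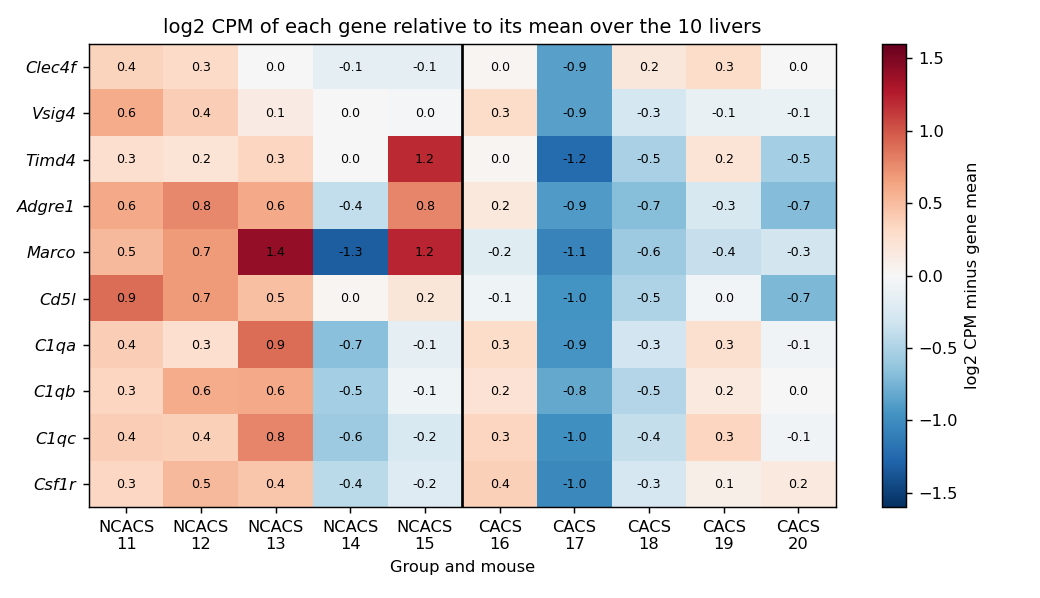
Log2 CPM of each gene (rows) minus its mean over the 10 livers, by group and mouse (columns), with red above and blue below the mean. The column of CACS mouse 17 is blue in all 10 rows, and that of NCACS mouse 14 is blue for Adgre1, Marco, the C1q chains and Csf1r.

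Within the groups the markers varied together from liver to liver. After the group mean was removed from each log2 CPM, the correlation over the 10 livers was positive for all 45 pairs of genes, with a median of 0.738, a lowest value of 0.314 (Clec4f and Marco) and a highest of 0.988 (C1qa and C1qc). The points share library and RNA preparation, so these values are a description. C1qc, C1qb, Csf1r and C1qa followed the mean of the other 9 genes most closely (0.937, 0.934, 0.930 and 0.922). Marco (0.667) and Timd4 (0.571) followed it least.

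Of 12102 genes with at least 1 CPM on average, the 10 whose deviations were most like the mean deviation of the markers over the 10 livers were Sema4b (0.967), Wfdc17 (0.964), Clec4n (0.956), Cd300e (0.931), Tfr2 (0.929), Unkl (0.926), Stat3 (0.922), Pirb (0.919), Erc1 (0.919) and Slc41a3 (0.917). Clec4n encodes the lectin dectin-2, and Cd300e and Pirb encode receptors of myeloid cells. Not all of the 10 are particular to macrophages: Tfr2, at 594 CPM on average, is chiefly a hepatocyte gene, and Stat3, at 179 CPM, is widely expressed. Wfdc17, a small secreted protein of macrophages, was the only one of these to pass the test between groups, with a log2 fold change of -0.82 and an edgeR adjusted p of 0.0455. With 1 mouse left out at a time it passed in 1 of 10 fits (edgeR adjusted p 0.0372 to 0.0983). Sema4b, the gene most like the markers from liver to liver, had a log2 fold change of -0.04 between groups.

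To see whether the markers moved apart from one another, each was divided by Csf1r in the same liver, which removes a change common to the whole set. Relative to Csf1r, Adgre1 had a mean log2 ratio of -1.75 ± 0.372 in NCACS and -2.43 ± 0.355 in CACS livers (SD, n = 5), a difference of -0.69 (exact permutation p = 0.0159, 0.0714 after adjustment over the 9 ratios). Cd5l had a log2 ratio to Csf1r of 1.27 ± 0.222 and 0.63 ± 0.362, a difference of -0.64 (exact permutation p = 0.0159, adjusted 0.0714). Neither ratio passed after adjustment over all livers, and both passed without mouse 17 (adjusted exact permutation p = 0.0357).

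The log2 ratios of Marco and Timd4 to Csf1r differed by -0.73 and -0.55, with exact permutation p-values of 0.111 and 0.127 (adjusted 0.286 for both). The ratios of the C1q chains stayed near 0 in both groups, with differences of -0.03 for C1qa, -0.10 for C1qb and -0.02 for C1qc (exact permutation p = 0.833, 0.333 and 0.841). Vsig4 differed by -0.17 and Clec4f by 0.12 relative to Csf1r (exact permutation p = 0.317 and 0.532).

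**Figure D4:**
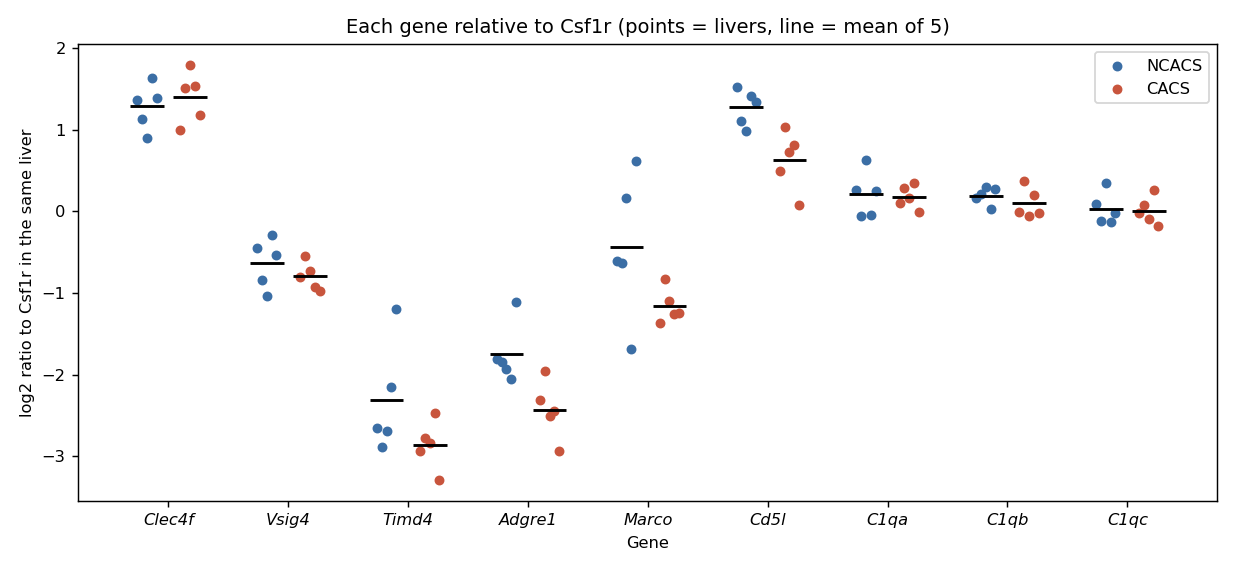
Log2 ratio of each gene to Csf1r in the same liver (y axis), with NCACS livers in blue, CACS livers in red and the mean of 5 livers as a line. The CACS means of Adgre1 and Cd5l lie 0.69 and 0.64 below the NCACS means, and those of the C1q chains lie within 0.10 of each other.

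Among 14 other genes known from Kupffer cells, 9 had a negative and 5 a positive log2 fold change, with a median of -0.32. Folr2, a folate receptor of resident macrophages, was the only one to pass, falling from 6.62 ± 1.48 to 3.20 ± 1.13 CPM (SD, n = 5) without overlap. Its log2 fold change was -1.05 and its edgeR adjusted p 0.0409. With 1 mouse left out it passed in 1 of 10 fits (edgeR adjusted p 0.0421 to 0.0919). Directions in the list were mixed. Clec1b, which encodes the lectin receptor CLEC-2, had a log2 fold change of 0.53 (edgeR adjusted p 0.0959), and Pltp, which encodes the phospholipid transfer protein, of -0.61 (edgeR adjusted p 0.106). The end of Clec1b overlaps the start of the dendritic cell gene Clec9a on the same strand, so their counts are uncertain. Folr2 and Pltp overlap genes on the other strand.

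The transcription factors of the Kupffer cell programme, the ligands of its niche and the machinery for clearing dying cells gave no gene past the threshold. Many genes of these lists are also expressed by other liver cells, so their whole-liver levels do not describe Kupffer cells alone. Of 10 transcription factors, 5 had a negative and 5 a positive log2 fold change. Spi1, which encodes PU.1, stood at -0.65 (edgeR adjusted p 0.282) and Zeb2 at -0.36 (edgeR adjusted p 0.259). Of 9 tested niche ligands and their signalling partners, 6 were negative and 3 positive. Notch1, the receptor for Dll4 on Kupffer cell precursors, had the smallest p, at a log2 fold change of -0.39 (edgeR adjusted p 0.174, unadjusted 0.0288). The Csf1r ligands Il34 and Csf1, the latter named after its values were seen, both stood at 0.30 (edgeR adjusted p 0.633 and 0.645), and Csf2 had no read in any liver.

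Of 12 genes for uptake of dying cells, 6 were negative and 6 positive, led by the bridging protein Gas6 at -0.61 (edgeR adjusted p 0.136). The C1q-associated proteases and other partners of C1q in the complement cascade (8 genes) had 3 negative and 5 positive values and a median of 0.02.

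Markers of other cells were read in the same livers, since several of the 10 genes are also expressed by monocyte-derived macrophages. Of 12 genes of monocytes and monocyte-derived macrophages, 11 had a negative log2 fold change and none passed, with a median of -1.11. At an unadjusted p under 0.05 Lyz2, Ly6c2 and S100a4 were lower (log2 fold changes -1.05, -1.20 and -1.16, edgeR adjusted p 0.0645, 0.132 and 0.178). Their summed level ranged from 92.1 to 217 CPM in NCACS and from 72.7 to 122 CPM in CACS livers. The list is not separate from Kupffer cells, which also express Lyz2, and Spp1 in it is also made by bile duct cells.

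Of 8 genes listed as pan-leukocyte, 8 had a negative log2 fold change, with a median of -0.65. The list is not separate from macrophages, since Aif1 and some others in it are mainly genes of myeloid cells. Aif1, a calcium-binding protein of macrophages, fell from 4.13 ± 0.919 to 2.34 ± 0.368 CPM (SD, n = 5) without overlap, with an edgeR adjusted p of 0.0388 that held in 1 of 10 fits with a mouse left out (0.0389 to 0.0858). The summed level of the list ranged from 43.8 to 105 CPM in NCACS and from 33.2 to 64.1 CPM in CACS livers, and CACS mouse 17 was again the lowest. NCACS mice 12 and 13 held 93.7 and 105 CPM, and NCACS mice 11, 14 and 15 lay within the CACS range. The list kept 8 negative values in each fit without 1 mouse.

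Neutrophil genes were near the limit of detection, with 4 of 12 tested, all 4 negative and a sum of 4.85 to 22.6 CPM in NCACS and 2.62 to 7.20 CPM in CACS livers. No neutrophil gene passed, and S100a8 had the smallest p, at a log2 fold change of -1.79 (edgeR adjusted p 0.111). Among 6 tested monocyte chemokines 4 were negative and none passed. Of 8 tested lymphocyte genes 6 were negative and none passed. Of 8 dendritic cell genes 5 were negative and none passed, and markers of the cross-presenting subset stood on both sides of 0. Clec9a had a log2 fold change of 0.66 (edgeR adjusted p 0.0603), and Xcr1 of -0.89 (edgeR adjusted p 0.149). Xcr1 had only 8 to 27 reads per liver.

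Lists of structural and erythroid cells had genes on both sides of 0. Of 10 sinusoidal endothelial genes 6 were positive, with a median of 0.10 and sums of 225 to 389 CPM in NCACS and 245 to 348 CPM in CACS livers. Of 10 stellate cell genes 6 were positive, with a median of 0.04. The collagen genes Col1a1 and Col3a1 stood at -1.27 and -0.96 (edgeR adjusted p 0.225 for both), and Dcn at 0.34 (edgeR adjusted p 0.247). Of 5 tested bile duct genes 3 were negative, with a median of -0.43, led by the keratin gene Krt7 at -1.24 (edgeR adjusted p 0.146). Of 4 tested erythroid genes 2 were negative, with a median of 0.0056. No gene of these 4 lists passed the test.

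Hepatocyte genes stood on the other side of 0. Of 10 genes 8 were positive, with a median of 0.33, and their sum ranged from 80442 to 127100 CPM in NCACS and from 121090 to 146650 CPM in CACS livers. Hnf4a, a master regulator of hepatocyte genes, rose from 632 ± 42.5 to 891 ± 116 CPM (SD, n = 5, edgeR adjusted p 0.0435, past the threshold in 1 of 10 fits without a mouse). Alb alone took 6.84 ± 1.90% of the reads in NCACS and 9.30 ± 0.663% in CACS livers (SD, n = 5). The part of the hepatocyte levels in the marker result was not tested. The median log2 fold change of the markers was -0.386 with raw library totals and -0.392 with TMM, and leaving the 10 most abundant genes out of the library totals kept Cd5l past the threshold as the only marker.

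**Figure D5:**
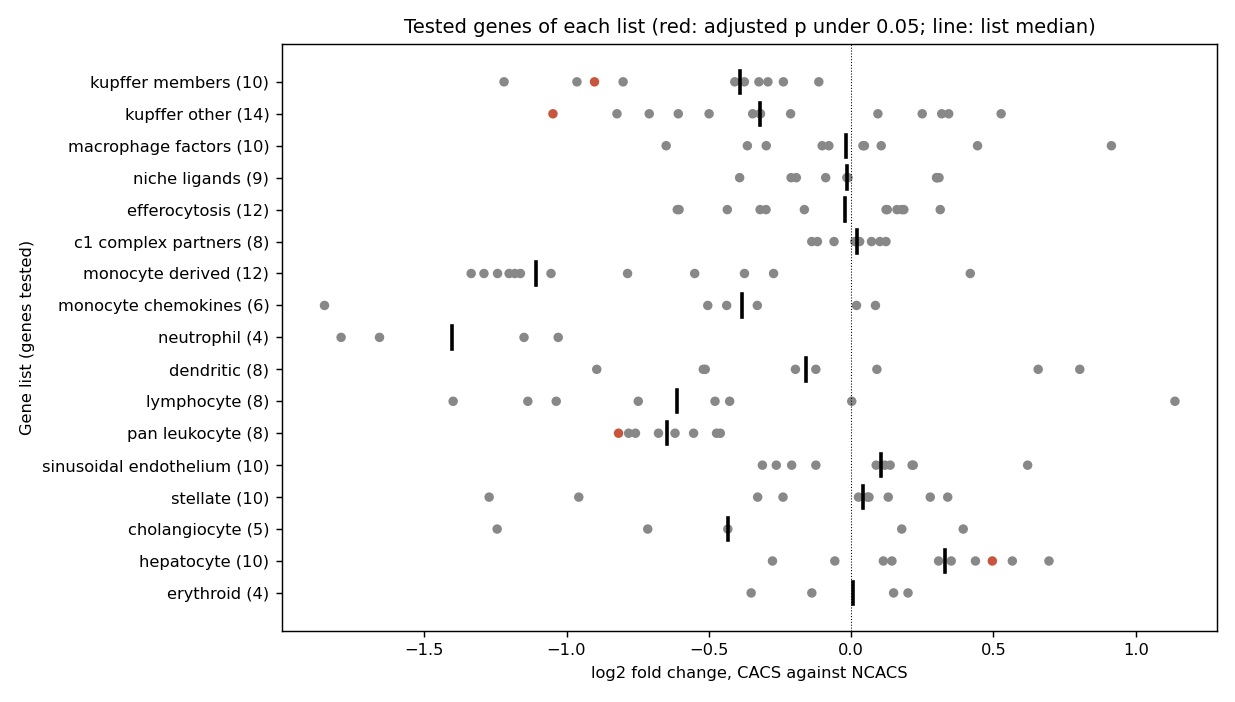
Log2 fold change (x axis, CACS against NCACS) of each tested gene of the 17 lists (rows, with the number tested), in red at an edgeR adjusted p under 0.05, with the median of each list as a black line. The 10 Kupffer cell markers lie at a median of -0.39, the monocyte-derived genes at -1.11 and the pan-leukocyte genes at -0.65. The sinusoidal endothelial genes lie at 0.10 and the hepatocyte genes at 0.33. Several monocyte-derived genes were near the limit of detection.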

How the data were processed

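Liver RNA from 10 KL mice was sequenced as stranded poly(A) libraries. Per the study's methods and the submitters' processing notes, the authors aligned reads to GRCm38 with STAR (2.4.1d), counted them per gene with HTSeq (0.6.1) and deposited raw counts without normalization. The annotation release and the strand setting are not given in the sources used here. The table had 0 columns that were not used. Groups, mouse numbers and weight changes came from the sample labels, and symbols and positions from GENCODE M21 (GRCm38), with no symbol for 70 of the tested genes.

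In R 4.3.3, edgeR 4.0.16 was used to keep 14143 genes (filterByExpr), scale libraries (TMM) and fit a quasi-likelihood model across them, with Benjamini-Hochberg adjustment and a threshold of 0.05. Log2 CPM used a prior count of 2. Ratios to Csf1r were compared with exact two-sided permutation tests. The edgeR procedure was tested on simulated data. Alternatives were DESeq2 1.42.0, limma-voom (limma 3.58.1), other scalings and filters, a robust fit, and each mouse left out. The checks of Folr2, Aif1, Hnf4a, Wfdc17 and of list counts were added after the data were seen. No 2 libraries of the same group agreed within counting noise. Members and gene lists were chosen with earlier results of these data known. Of other lists, the 3 genes with the smallest p and every gene past the threshold could be named, and of the genes most like the markers, 10. Some items are not reported here. Each sample is 1 mouse, and nothing in the labels gives a batch.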

Additional observations from a re-analysis of the deposited data

Results flagged for a closer look

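Within a group of 5, a liver was picked out when its gap to the nearest other liver exceeded Dixon's critical share of the range (0.710). This was so for 12 of the 116 combinations of gene and group examined, where chance gives about 1 in 20. Among the marker genes, Clec4f was low in CACS mouse 17 (gap 0.745 of the range), Timd4 was high in NCACS mouse 15 (0.715) and Adgre1 was low in NCACS mouse 14 (0.849). CACS mouse 17 also stood apart for Notch1 (low, 0.753), Serping1 (low, 0.737) and Col3a1 (high, 0.729). NCACS mouse 14 also stood apart for Cfi (low, 0.736) and NCACS mouse 15 for Gdf2 (low, 0.734). NCACS mouse 13 was low for Cd36 (0.801) and Cyp2e1 (0.734). CACS mouse 19 was high for Cd209a (0.806), and CACS mouse 20 was low for Alas2 (0.718).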

How the results depend on the processing

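Both the choice of mice and the choice of test moved the calls. With all livers 1 of the 10 markers passed (Cd5l), and between 0 and 3 passed when 1 mouse was left out, with 178 to 519 genes past the threshold overall against 538 in the main test. Cd5l was lost without any one of NCACS mice 11, 12, 13 and 15 or CACS mice 16, 17, 18 and 20. Without CACS mouse 16 the passing marker was Adgre1. DESeq2 called 3 markers (Cd5l, Adgre1 and Marco) and 1386 genes. Under the other scalings, filters, limma-voom and the robust fit Cd5l alone passed. The share of called genes that were higher was 49.6% in the main test and 40.4% without NCACS mouse 14. Clec4f changed sign without CACS mouse 17 (0.043), and its range over the fits without 1 mouse was -0.202 to 0.043. With Adgre1 in place of Csf1r as the denominator, the log2 ratios turned positive for Vsig4 (0.52), Timd4 (0.14), Cd5l (0.0421), C1qa (0.66), C1qb (0.59) and C1qc (0.66), and the last 2 passed (adjusted exact permutation p = 0.0476), as the construction of the ratio brings in the lower Adgre1. Over the fits without 1 mouse the C1qa ratio to Csf1r ran from -0.0971 to 0.0769 and that of C1qc from -0.0874 to 0.0551. Among genes with at least 10 counts in every liver, 6 monocyte-derived genes were negative, against 11 in the main test, since fewer genes were tested. Timd4, at 72 to 336 reads a liver, is limited most by depth. No paired analysis was possible because no mouse number occurs in both groups.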
